A study of Mus musculus with 2 samples.

Results

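CpG-rich promoters are promoter regions whose DNA keeps a high density of the dinucleotide CpG. In the tiled probes of a mouse promoter array they were taken as the autosomal named genes with 10 or more probes, of which at least 5 had 60% or more G+C and 4 or more CpG in the probe sequence. Such probes are called CpG-rich probes here. Of 15990 autosomal genes with 10 or more probes, 140 met this rule, and the other 15850 genes serve as the comparison. The rule reads the probe sequences alone and no measured signal.

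The measurement was a chromatin immunoprecipitation of Tcf3 in E14 cells grown without feeders; E14 is a line of mouse embryonic stem cells. Amplified immunoprecipitated (IP) DNA carried the dye Cy5 and input DNA, labelled with a kit for genomic DNA, carried Cy3. They were read on a set of 2 arrays that carry different probes. Formaldehyde cross-linked chromatin had fragments of about 500 bp. The titles name Tcf3, while the protocol lists several antibodies without saying which array had which. Each genomic position was read on 1 array, with no repeat, no dye swap and no control precipitate, so the values below are a description of these arrays and carry no test between conditions. IP enrichment, dye, amplification of the IP DNA and hybridisation by probe composition cannot be told apart in such a design.

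Most mammalian DNA is poor in CpG, because methylated cytosines mutate over time. CpG islands are the exception: they are usually unmethylated, often lie at the promoters of housekeeping and developmental genes, and many start transcription without a TATA box. Tcf3, now named Tcf7l1, is an HMG-box protein of the Tcf/Lef family that binds short A/T-rich words around CTTTG and mainly represses Wnt target genes in embryonic stem cells through Groucho/TLE and CtBP corepressors. A CpG-rich stretch is therefore not the DNA in which its own binding word is most common.

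The values are log2 ratios of the IP over the input intensity, centred on each array's median, over spots with a measured signal in both channels. A set joins a probe to the next measured probe to its left and to its right, up to 1000 bp away, so it holds 2 or 3 probes, and each gene is described by its highest set mean. A gene is called when at least 1 set passes a fixed rule of height, with a normal tail probability under 0.001 that serves only as a cutoff. The SD printed with a set mean is the spread between the probes of that set, not between experiments.

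The sequences of the highest and the lowest CpG-rich sets show what these probes hold. The set of Foxe1, a forkhead transcription factor of thyroid development, was the highest of all members, and that of Scube1, a secreted and membrane-bound EGF-domain protein, was the lowest. They are written as given in the probe file, with each CpG in capitals; no source used here names the genome build of the probe coordinates.
Foxe1 probe at chr4:46358662-46358706: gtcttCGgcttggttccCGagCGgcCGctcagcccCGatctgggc
Foxe1 probe at chr4:46358852-46358896: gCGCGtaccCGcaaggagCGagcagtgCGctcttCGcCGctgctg
Foxe1 probe at chr4:46359019-46359063: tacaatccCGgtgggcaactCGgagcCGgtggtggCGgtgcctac
Scube1 probe at chr15:83807095-83807139: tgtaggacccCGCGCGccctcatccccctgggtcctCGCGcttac
Scube1 probe at chr15:83807301-83807345: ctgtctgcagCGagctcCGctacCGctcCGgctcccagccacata
Scube1 probe at chr15:83807481-83807525: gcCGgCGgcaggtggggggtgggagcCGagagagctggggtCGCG

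The Foxe1 probes, with 5, 7 and 4 CpG, had log2 ratios of 4.05, 3.87 and 3.38. The Scube1 probes, with 5, 4 and 5 CpG, had 0.23, 0.83 and 0.39. Both sets met the same sequence rule. Their values did not overlap, which follows from their choice as the highest and the lowest set. The Foxe1 probes had input intensities of 417, 249 and 3827 and IP intensities of 5682, 3002 and 32760, whereas the Scube1 probes had similar brightness in both channels, with IP intensities of 2656, 3068 and 4469 and input intensities of 2620, 1996 and 3952.

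Another set is shown because it lies in one of the same promoters but outside its CpG-rich stretch. Pdgfa encodes the A chain of platelet-derived growth factor. Its highest set holds 1 of the 4 Tcf words searched on both strands (CTTTG followed by AA, AT, TA or TT), which is in capitals in reverse complement here.
Pdgfa probe at chr5:137968736-137968785: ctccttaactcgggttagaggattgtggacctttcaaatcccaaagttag
Pdgfa probe at chr5:137968953-137968997: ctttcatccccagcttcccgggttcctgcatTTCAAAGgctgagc
Pdgfa probe at chr5:137969062-137969111: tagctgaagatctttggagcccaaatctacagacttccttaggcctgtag

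The 3 Pdgfa probes, with 1, 1 and 0 CpG and 44%, 55.6% and 46% G+C, had log2 ratios of 2.01, 3.32 and 3.81. The probe that holds the word was the middle one, at 3.32.

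**Figure D1:**
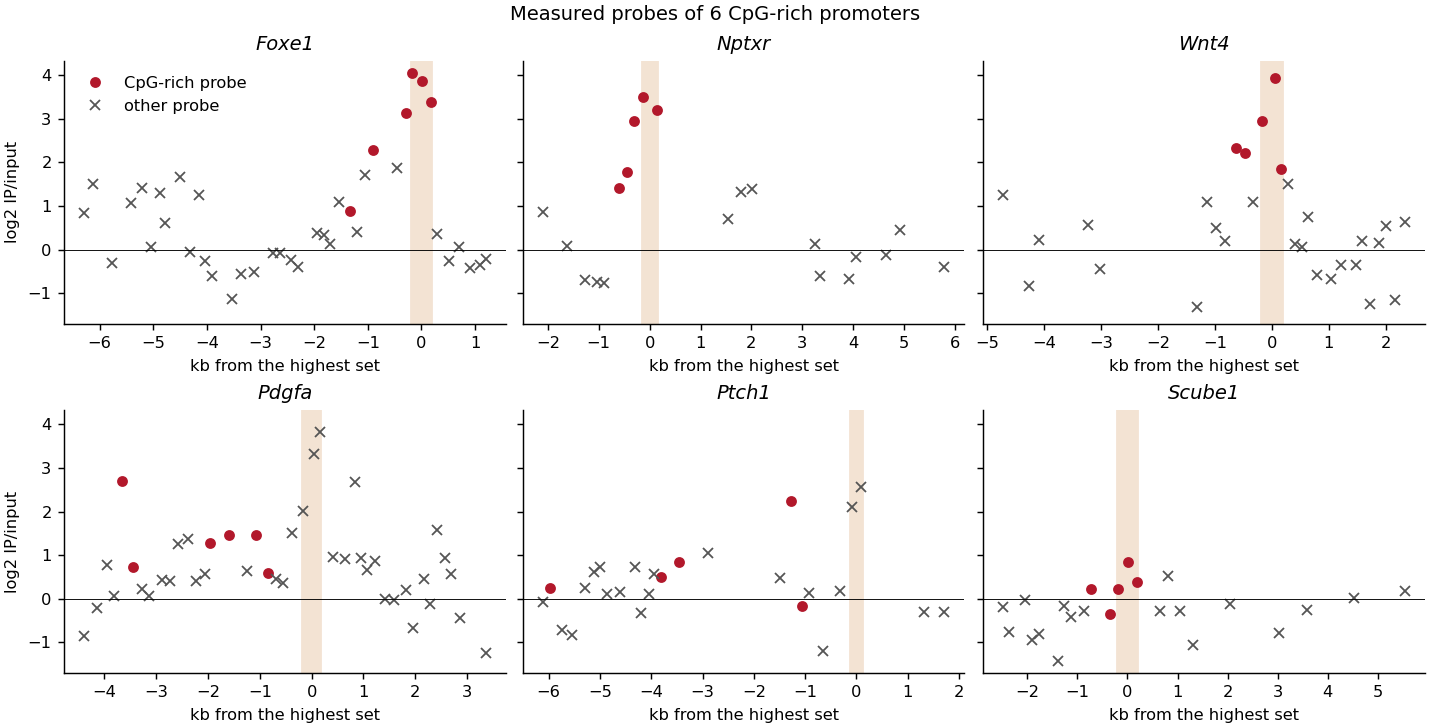
Log2 IP over input ratio (vertical axis) of the measured probes of 6 CpG-rich promoters, plotted by distance in kb from the centre of the gene's highest set (shaded); filled points are CpG-rich probes and crosses are the other probes. In Foxe1, Nptxr and Wnt4 the highest set lies in the CpG-rich stretch, in Pdgfa and Ptch1 it lies beside it, and in Scube1 no probe of the set exceeded 0.83.

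The 140 members had 19 to 87 probes each, with a median of 37, against a median of 27 for the other genes. Of the members, 90 had 5 CpG-rich probes, 37 had 6, 8 had 7, 4 had 8 and 1, named Pigt, had 13. They hold 773 CpG-rich probes among their 5225 probes (14.8%), against 10054 (2.31%) in the other genes. The CpG-rich probes of most members lay close together: the median stretch from the first to the last was 1196 bp (quartiles 913 to 1836 bp). Of 141 such stretches, 1 per gene and chromosome, 111 were under 2000 bp, and the longest was 89746 bp. No 2 members had probes within 1000 bp of each other, and 70 members had their highest set on each array. A current gene symbol was found for 137 members, of which 24 carry an older name on the array.

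The label was checked against RefSeq promoter windows of 250 bases before and 50 bases after a gene's start, on GRCm38.p6, used for their sequence alone. Of the members, 99 had at least 1 window, giving 133 windows. These held a median of 31 CpG and 69.0% G+C, with a CpG count 0.88 times that expected from the base composition. The 14277 windows of 11480 other genes held a median of 16 CpG and 58.3% G+C, at 0.66 times the expected count. By their sequence, 76 of the 773 CpG-rich probes (9.83%) were found whole in a window of their own gene, in 54 genes. The median log2 ratio of these 76 probes was 1.58. Where the other CpG-rich probes lie relative to a start was not determined.

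Short promoter words were counted on both strands of the same windows. The GC box GGGCGG, the core of Sp1-type sites, was in 69.9% of the members' windows and 52.5% of the other windows. The word CGGCGGC was in 40.6% and 15.2%, and the NRF1-type word GCATGCGC in 6.02% and 4.03%. The A/T-rich TATAAA was in 3.76% and 10.9%, CCAAT in 24.8% and 37.4%, and a Tcf word in 7.52% and 13.5%. The E-box CACGTG was in 9.77% and 8.46%. The members' windows differ from the others in base composition, and the part of that difference in these shares was not tested. A match is a description of the letters and not of binding.

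Wnt4 and Srsf6 (Sfrs6 on the array) are printed as examples in which a probe of the measured highest set, in capitals, falls whole in the 250 bases before the start. Wnt4 is a secreted Wnt ligand and Srsf6 is an SR-type splicing factor.
Wnt4 at chr4:137277385-137277634, plus strand, RefSeq on GRCm38.p6: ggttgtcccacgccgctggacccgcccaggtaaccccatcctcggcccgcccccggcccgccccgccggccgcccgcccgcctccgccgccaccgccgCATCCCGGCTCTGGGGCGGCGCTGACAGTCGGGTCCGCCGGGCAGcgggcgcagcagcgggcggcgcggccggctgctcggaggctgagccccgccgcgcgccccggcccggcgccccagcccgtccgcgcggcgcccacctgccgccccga
Srsf6 at chr2:162931258-162931507, plus strand, RefSeq on GRCm38.p6: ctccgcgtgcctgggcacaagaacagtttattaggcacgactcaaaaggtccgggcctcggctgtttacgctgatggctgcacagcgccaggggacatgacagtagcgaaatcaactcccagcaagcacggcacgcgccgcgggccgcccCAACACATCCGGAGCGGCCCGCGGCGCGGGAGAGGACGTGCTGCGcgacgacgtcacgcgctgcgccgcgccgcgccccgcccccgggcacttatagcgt

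The Wnt4 window holds 44 CpG in its 250 bases, and the probe in it had a log2 ratio of 2.94. The Srsf6 window holds 35 CpG, and its probe, from 100 to 56 bases before the start, had 4.07. Both promoters were called. The same held for a probe of 5 other named members: Cul1 (probe log2 ratio 3.36), Zfand5 (2.01 and 4.11), Raly (1.73), Phf23 (0.87) and Scube1 (0.39), of which Phf23 and Scube1 were not called. A probe before the start thus took low as well as high values.

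As measured, CpG-rich promoters stood far above other genes. Of the 140 members, 116 were called (82.9%, exact 95% interval 75.6 to 88.7%), against 2206 of the 15430 other genes with a value (14.3%, interval 13.7 to 14.9%). The intervals cover the counting of genes only, and genes of 1 array are not replicates. The median highest set mean was 1.99 in the members (quartiles 1.60 to 2.41), about a 3.98-fold IP over input ratio, against 0.95 in the other genes (quartiles 0.61 to 1.34), about 1.93-fold. Of the members, 70 exceeded 2, and 4 exceeded 3. Taken over its whole tiled region, the median gene stood at 0.31 in the members and -0.00 in the other genes, so the higher sets did not extend over the whole tiled region.

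As measured, the height of the highest set followed the number of CpG-rich probes across all genes, and rose below the 5 that the rule requires as well. For genes with 0, 1, 2, 3 and 4 CpG-rich probes the shares called were 5.94%, 14%, 35.7%, 52.9% and 63.5%. They were 78.9% with 5 and 90.0% with 6 or more, which are the members. The median highest set mean went the same way, through 0.77, 1.06, 1.37, 1.58, 1.76, 1.92 and 2.11. At the edge of the rule, the 3 highest members with 5 CpG-rich probes were Nptxr (3.35), Foxe3 (3.25) and Wnt4 (2.91). The 3 highest genes with 4 were Nrxn2 (3.34), 1700108L22Rik (3.10) and Acy1l2 (3.07), so sets of like height also occurred just outside the rule.

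The number of probes per gene moved with the share called among the other genes. Among genes with 20 to 29 probes 89.5% of 19 members were called, against 13.0% of the other genes. With 30 to 39 probes the shares were 86.1% of 72 members and 19%, and with 40 to 49 probes 76.7% of 43 members and 22.8%. The difference was thus present at each probe number with at least 19 members. It was also present on both arrays: 85.7% of the members and 17.1% of the other genes were called on the first array, and 80.0% and 11.1% on the second.

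**Figure D2:**
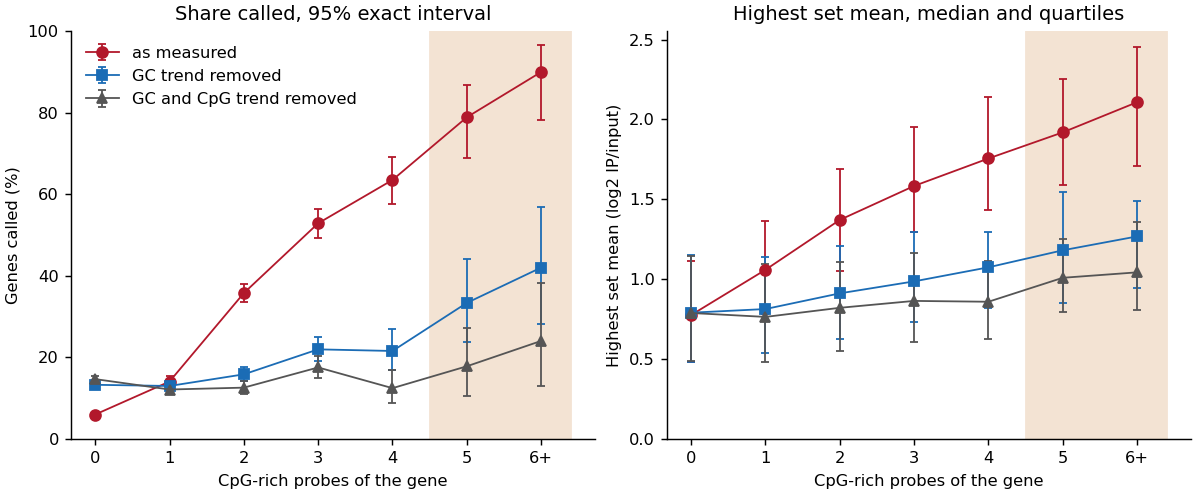
Share of genes called (left, in percent, with exact 95% intervals) and median highest set mean (right, log2 IP over input, with quartiles) by the number of CpG-rich probes of the gene, as measured, with the array-wide GC trend removed and with the GC and CpG trend removed; members are shaded. The measured share climbs through 5.94% to 90.0%, while after removal of the GC and CpG trend it lies between 12.1% and 24.0% at every number.

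Within a promoter, the CpG-rich probes carried the height. The median difference between a member's CpG-rich and other probes was 1.57 (quartiles 1.08 to 2.03), and 139 of 140 members had the CpG-rich probes higher. Of the 770 measured CpG-rich probes 96.2% were above the array median, against 52.1% of the members' other probes. CpG-rich probes made up 273 of the 338 called probes of the members (80.8%). The highest set held at least 1 CpG-rich probe in 133 members, and 3 of them in 71.

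Both channels were brighter at CpG-rich probes, the IP channel more so. In the members, CpG-rich probes had a median IP intensity of 2702 and other probes 292. The median input intensity was 1017 at CpG-rich probes and 427 at other probes. The other genes had nearly the same values at their CpG-rich probes, 2506 in the IP and 1059 in the input channel. In 36% of the members' other probes, but in 0.26% of their CpG-rich probes, the IP signal was not above background and the scanner software had put in a surrogate value; such spots are left out of the main values. With them included, 61.4% of the members and 14.6% of the other genes were called. On the first array these shares were 81.4% and 23.7%, and on the second 41.4% and 4.73%.

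Among the members' CpG-rich probes the ratio was highest where the input was dim. Over 4 equal parts of the input intensity within each array, from dim to bright, the median log2 ratio was 2.14, 1.72, 1.5 and 1.05, while the median IP intensity was 1106, 1907, 3562 and 8376. The input is the denominator of the ratio, and its part in this order was not tested. The median number of CpG was 5 in each part, and the median G+C was 66.7%, 66.7%, 68.9% and 73.3%.

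Among probes of like G+C, at 60% or more, the ratio rose with the CpG number of the probe. The CpG number of the DNA around the probe was not held fixed, and its part was not tested. For probes of the members with 60 to under 64% G+C, the median log2 ratio was 0.40 with 0 or 1 CpG, 0.62 with 2 or 3, 1.31 with 4 or 5 and 2.14 with 6 or 7. All other autosomal probes of the same G+C had 0.18, 0.66, 1.16 and 1.70, in the same order. With 68 to under 72% G+C the members' probes had 0.81 with 2 or 3 CpG, 1.37 with 4 or 5, 2.00 with 6 or 7 and 2.92 with 8 or more. The other probes had 0.63, 1.24, 1.94 and 2.18. The members' 2.92 was of 8 probes, 7 of them on the second array, and their 2.14 was of 17. With 6 or 7 CpG at 68 to under 72% G+C, members' and other probes had 2.22 and 2.04 on the first array. On the second they had 1.79 and 1.86. At 36 to under 40% G+C there was no such order: the members' probes had -0.25 with 0 or 1 CpG and -0.29 with 2 or 3, and the other probes -0.26 and -0.31. The order at 60% G+C or more was therefore array-wide and was shared by probes of genes that are not members.

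**Figure D3:**
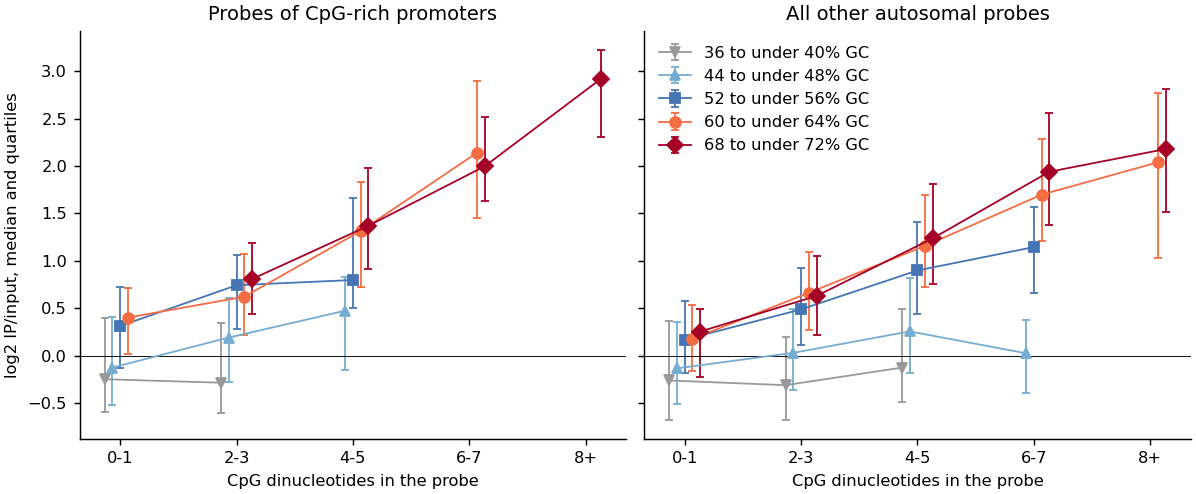
Median log2 IP over input ratio with quartiles (vertical axis) against the number of CpG in the probe (horizontal axis) for classes of probe G+C, in probes of CpG-rich promoters (left) and in all other autosomal probes (right). In both panels the ratio climbs with CpG number at 60% G+C or more, to 2.14 and 1.70 at 6 or 7 CpG and 60 to under 64% G+C, and stays below 0 at 36 to under 40% G+C.

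CpG-rich probes of genes that have only 1 of them were nearly as high as those of the members. Their median log2 ratio was 1.30. It was 1.44, 1.48 and 1.44 in genes with 2, 3 and 4 of them, 1.59 with 5 and 1.64 with 6 or more. With the GC trend removed these medians were, in the same order, 0.31, 0.38, 0.37, 0.38, 0.52 and 0.53. With the GC and CpG trend removed they were -0.06, 0.02, 0.02, 0, 0.14 and 0.19. In each setting they differed little from 2 to 4 and were higher at 5. After both removals the CpG-rich probes of the members thus lay 0.14 to 0.19 above the median of probes of like composition.

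Probes outside the CpG-rich class were lower, and their height fell over the first 500 bp from the nearest CpG-rich probe. In the members, CpG-rich probes had a median of 1.61, and other probes within 250 bp of one had 0.45. The other probes had 0.10 at 250 to 500 bp, -0.16 at 500 to 1000 bp and -0.17 at 1000 to 2000 bp. Fragments averaged about 500 bp, and the part of shared fragments in these values was not tested. Neighbours of low CpG and GC were not high at any distance: the 57 probes with 0 CpG and under 50% G+C within 250 bp of a CpG-rich probe had a median of -0.17, and the 159 such probes over 4000 bp away had -0.04. Other probes with 2 or more CpG had 0.71 within 250 bp and 0.20 over 4000 bp away.

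**Figure D4:**
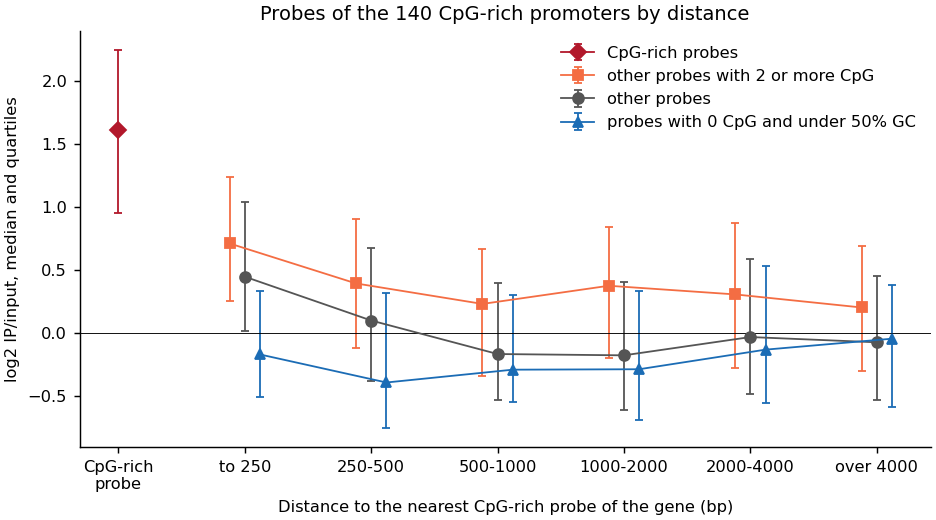
Median log2 IP over input ratio with quartiles (vertical axis) of the measured probes of the 140 CpG-rich promoters by distance in bp to the nearest CpG-rich probe of the gene. CpG-rich probes stand at 1.61, other probes with 2 or more CpG at 0.71 within 250 bp, and probes with 0 CpG and under 50% G+C at -0.17 within 250 bp.

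The members were therefore also described after removing the array-wide trend, that is, after subtracting from each probe the median of all probes of the same array with like G+C, or with like G+C and the same CpG number. This subtraction also takes away any binding that CpG-rich DNA shares over the whole array, so it shows only what stands out from DNA of like composition. With the GC trend removed, 51 of 140 members were called (36.4%, interval 28.5 to 45%), against 14.0% of the other genes (2166 of 15430). By number of CpG-rich probes, 21.9% of genes with 3, 21.5% with 4 and 33.3% with 5 were called in this setting. With the GC and CpG trend removed, 28 members were called (20%, interval 13.7 to 27.6%), against 14.0% of the other genes (2155 of 15430), and the median highest set mean was 1.02 in the members and 0.79 in the other genes. That share is near the background. On the first array 34.3% of the members and 20.5% of the other genes were called, and on the second 5.71% and 6.61%. With 20 to 29 probes the shares were 15.8% of 19 members and 12.5% of the other genes. With 30 to 39 probes they were 15.3% and 17.9%, and with 40 to 49 probes 25.6% and 23.2%. With 50 or more probes they were 60% of 5 members and 24.5% of the other genes.

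Removal of the trend moved the highest set of many members away from the CpG-rich stretch. With the GC and CpG trend removed, the highest set held a CpG-rich probe in 59 of 140 members, against 133 as measured. The median difference between CpG-rich and other probes of a promoter was 0.50 with the GC trend removed and 0.11 with both removed, positive in 109 and in 88 of 140 members. Of the 28 members called with both removed, 25 were also called as measured, and 19 had a highest set with no CpG-rich probe. The median distance of those 19 sets from the nearest CpG-rich probe was 2030 bp.

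**Figure D5:**
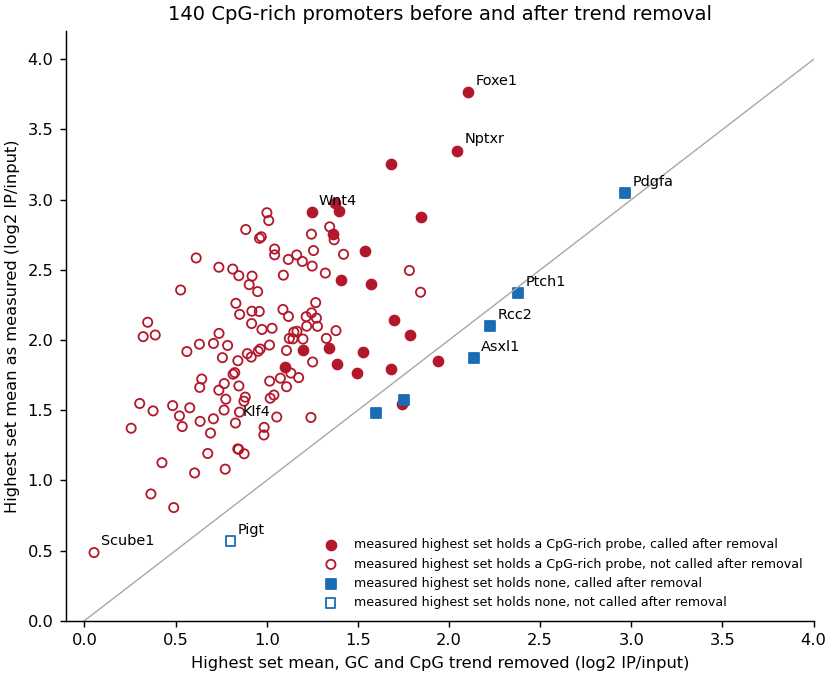
Highest set mean of each of the 140 CpG-rich promoters as measured (vertical axis, log2 IP over input) against the same with the GC and CpG trend removed (horizontal axis); colour and shape show whether the measured highest set holds a CpG-rich probe, filled points are called after removal, and the line marks equal values. Pdgfa, Ptch1, Rcc2 and Asxl1 lie close to the line, and 132 of the 140 members lie above it.

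The 15 members with the highest measured set means reached from 3.77 in Foxe1 to 2.74 in Srsf6. After Foxe1 came Nptxr, a neuronal pentraxin receptor, with 3.35 ± 0.22 (SD over 2 probes), and Foxe3, a forkhead factor of the lens, with 3.25 ± 0.91 (SD over 3 probes). Pdgfa had 3.04 ± 0.93. Dpm1, the catalytic subunit of dolichol-phosphate mannose synthase, had 2.97, and Wnt4 had 2.91. Pcnx followed with 2.91, and Cul1, the cullin scaffold of SCF ubiquitin ligases, with 2.85. Pura, a purine-rich-element binding protein, had 2.81, Zfand5 (Za20d2 on the array) 2.79, Macir (D1Ertd622e) 2.76 and Grin2d, an NMDA receptor subunit, 2.75.

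These 15 did not keep their order once the trend was removed. Foxe1 had 2.10, Nptxr 2.04 and Foxe3 1.68 with the GC and CpG trend removed, and all 3 were still called from sets that hold CpG-rich probes. Pdgfa had 2.96, close to its measured value. Dpm1 (1.37), Wnt4 (1.25) and Macir (1.37) were still called. Pcnx (1.00), Cul1 (1.01), Pura (1.35), Zfand5 (0.89), Grin2d (1.25) and Srsf6 (0.97) were not.

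Single probes decided several of these sets. The 3 Dpm1 probes had 1.70, 2.61 and 4.61, and the 3 Zfand5 probes had 2.01, 4.11 and 2.25. The median SD within a set was 0.79 over the members. The SD of the Foxe1 set was 0.35 and that of the Nptxr set 0.22.

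For 6 members, Pdgfa, Ptch1, Rcc2, Asxl1, Snap91 and Igf2bp1, the highest set was the same with and without the trend and held no CpG-rich probe. Pdgfa had a set mean of 2.91 with the GC trend removed and 2.96 with both removed, 891 bp from its nearest CpG-rich probe. Ptch1, the hedgehog receptor, had 2.33 and 2.38, Rcc2, a regulator of mitosis, had 2.20 and 2.23, and Asxl1, a Polycomb-associated protein, had 2.10 and 2.14. With all spots Ptch1 had 1.43, Igf2bp1 1.39 and Snap91 1.21, and none of these 3 was called. With neighbours within 500 bp Rcc2 had 1.77 and was not called. The 2 Ptch1 probes, both with 36.7% G+C and 1 CpG, had measured log2 ratios of 2.11 and 2.56 and lie 1150 bp from the nearest CpG-rich probe. The 2 Rcc2 probes had 2.14 and 2.06, and the 3 Asxl1 probes had 2.00, 1.48 and 2.14. The probes of Ptch1 are printed for their contrast with those of Foxe1; each holds 1 CpG, in capitals.
Ptch1 probe at chr13:61391446-61391505: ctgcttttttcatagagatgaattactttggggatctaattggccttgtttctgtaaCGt
Ptch1 probe at chr13:61391635-61391694: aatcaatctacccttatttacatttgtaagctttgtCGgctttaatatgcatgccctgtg

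The 7 members below were also among the 15 highest called after removal of the GC and CpG trend, with sets without a CpG-rich probe. These 15 were listed after their values were seen. Snap91 and Igf2bp1 belong to the members already described above. Cdh4, the cadherin R-cadherin, had 1.94, and Tle1, a Groucho corepressor, had 1.79. Snap91, a clathrin assembly protein of synapses, had 1.75, and Bmp2, a ligand of the BMP pathway, had 1.74. Sp9, a zinc-finger factor of the forebrain and limb, had 1.70, and Raly, an RNA-binding protein, had 1.68. Igf2bp1, an mRNA-binding protein, had 1.6. Cdh4 and Bmp2 were not called as measured.

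The sets of Bmp2, Cdh4 and Tle1 each rested on 2 probes. The 2 Bmp2 probes had measured log2 ratios of 2.01 and 1.00, those of Cdh4 0.66 and 2.62, and those of Tle1 0.63 and 2.25. In each pair 1 probe was at or under 1.00 and the other at or over 2.01.

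Rev1, a translesion DNA polymerase named Rev1l on the array, was among the 10 highest with the GC trend removed of those called both as measured and with that trend removed, at 1.88. With both trends removed its highest set, at 1.84, rested on 1 probe of 3.10 beside one of 0.16, and the gene was not called.

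At the low end, Scube1 had a highest set mean of 0.49 ± 0.31 (SD over 3 probes). Phf23, a PHD-finger protein, had 0.81 ± 0.45, the region named Dos-Atp5d had 0.90 ± 0.16, and Egr3, an early growth response factor, had 1.05 ± 1.27. All 4 hold the required 5 CpG-rich probes, and none was called as measured or with either trend removed. With normexp background correction Egr3 had 1.09 and was called. The 3 Phf23 probes had 1.22, 0.87 and 0.33 with 6, 4 and 4 CpG.

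Pigt, a subunit of the GPI transamidase, is the exception among members. Its name covers 2 places on the arrays. At chr2:164232677-164240702 lie 31 probes, 1 of them CpG-rich, with a highest set mean of 0.57 ± 0.16 (SD over 2 probes). At chr17:38059684-38067201 lie 21 probes, of which 12 are CpG-rich, and these had a median log2 ratio of -0.26, with 2 of 12 above 0 and a range of -1.27 to 0.86. The chromosome 17 probes were bright in both channels, with a median IP intensity of 8007 and a median input intensity of 14221 for its 12 CpG-rich probes, against 2702 and 1017 for the CpG-rich probes of all members. No set was called at either place. Which gene the chromosome 17 probes belong to is not annotated beyond the array's name.

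Some members belong to gene lists of known role, and their calls as measured stand against the 82.9% called among all 140 members. With the GC trend removed that share was 36.4%, and with both trends removed 20%. Calls of a list's other genes stand against 14.3% of all other genes as measured and 14.0% in either trend-removed setting. Of the pluripotency list 3 genes were members. Foxd3, a forkhead transcription factor, had 2.46, Rest, the repressor of neuronal genes, had 1.71, and Klf4, a reprogramming factor, had 1.41. All 3 were called as measured, 1 with the GC trend removed (Foxd3, 1.32) and none with both removed, where they had 0.85, 1.02 and 0.83. The 24 other genes of that list had 15, 16 and 15 calls in these settings. The 3 Foxd3 probes had 2.40, 3.71 and 1.26, and the 3 Klf4 probes had 1.70, 0.83 and 1.70. Klf4 also lost its call with all spots (1.37), with the trend over intensity removed (1.12) and at a tail probability of 0.0001.

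In the Wnt list, 2 genes were members, the ligand Wnt4 and the corepressor Tle1. Both were called as measured and in both trend-removed settings, beside 82.9%, 36.4% and 20% of all members. Of the 63 other genes of the list 16 were called as measured. The measured Tle1 set, with 2.03 ± 1.06 (SD over 3 probes), lies in its CpG-rich stretch, and its set after removal lies 2209 bp away.

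Developmental transcription factors were the largest group, with 9 members: Foxe1, Foxe3, Nkx2-4, Irx2, Foxd3, Foxd1, Foxo3 (Foxo3a on the array), Foxl2 and Foxq1. All but Foxq1 (1.59) were called as measured, 8 of 9 beside 82.9% of all members, with a median of 2.46 beside 1.99 for all members. Of the 122 other genes of the list 30 were called, with a median of 1.29. With the GC trend removed 5 of these 9 members were called, beside 36.4% of all members. With both removed 2 were called, Foxe1 and Foxe3, a share near the 20% of all members. Nkx2-4, a homeobox gene, had 2.5 ± 0.83 as measured (SD over 3 probes).

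Among chromatin regulators the members were Ctbp2, a corepressor, Jarid2, a cofactor of Polycomb repressive complex 2, and Kdm2b (Fbxl10 on the array), a demethylase that binds unmethylated CpG through its CXXC finger. Ctbp2 had 2.40, Jarid2 2.27 and Kdm2b 1.94, and all 3 were called as measured, beside 82.9% of all members. Of the 63 other genes of the list 8 were called. Ctbp2 (1.57) and Kdm2b (1.34) were called with both trends removed and Jarid2 (1.27) was not, beside 20% of all members. The Kdm2b set after removal lies 2030 bp from the nearest CpG-rich probe.

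In Fgf and Bmp signalling the members were the inhibitors Smad7 (2.08) and Spry2 (2.01), the transducer Smad2 (1.76) and the ligand Bmp2 (1.54). The first 3 were called as measured, 3 of 4 beside 82.9% of all members, but not with either trend removed. Of the 62 other genes of the list 19 were called as measured. The 3 Smad7 probes had 2.29, 2.02 and 1.94, the most even set among these. With all spots Smad7 had 1.90 and was not called. The only member of the cell cycle list was Ccne1, cyclin E1, with 1.22 and no call in any of these settings. No member was matched by name to the Hox clusters (32 genes), the ribosomal proteins (69), the respiratory chain (74) or the proteasome (36). As 140 of 15990 genes are members, an absence from lists of this size says little.

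Tcf words were not more common in the members' highest sets. A word was in 8 of 140 (5.71%, interval 2.5 to 10.9%), against 1468 of 15430 highest sets of the other genes (9.51%). Over every set, 9.72% of the members' sets and 12% of those of the other genes held one, so the members' highest sets, which are G+C-rich, had fewer. With the GC and CpG trend removed, a word was in the highest set of 3 of the 28 called members (10.7%, interval 2.27 to 28.2%) and of 16.3% of the called other genes. Among genes not called it was in 6 of 112 members (5.36%, interval 1.99 to 11.3%) and in 11.7% of the other genes. The relation of calls to words was not tested. Of the named sets with a word, the Pdgfa word lay in a high probe, whereas the word-bearing probes of Igf2bp1 and Egr3 had log2 ratios of -0.02 and -0.40 beside neighbours of 2.92 and 1.92.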

How the data were processed

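Cy5 and Cy3 spot intensities were deposited by the authors as the scanner output of Agilent's Feature Extraction software (version 9.1.1.1 in the file headers): background-subtracted and dye-normalized processed signals, with mean and local background signals beside them. The log10 ratio that the authors deposited there is of the same signals and was not used further. The deposited value table of the series equals the scanner files' log ratio errors and was not used. Control spots were left out, as were non-uniform spots; log2 of processed Cy5 over Cy3 was centred on each array's median. The scale for the calling rule was the median absolute value of values below the array median (divided by the normal quartile), 0.71 and 0.68 on the arrays. A set counted when its mean had an upper normal tail under 0.001 and, in addition, its centre probe passed 0.001 while a neighbour passed 0.1, or 2 of its probes passed 0.005. A gene needed 3 measured probes for a value. Trends were medians per bin of 2% G+C, or per cell of G+C and CpG number with at least 50 probes, per array; the second was chosen after seeing the data. The caller and the trend removal were tested on simulated data.

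Members and gene lists were chosen with earlier results of these data known. Genes are named by fixed rules: the 15 highest called members, the 10 highest with the GC trend removed of those called both as measured and with it removed, the 3 highest of each list, the 5 lowest, 3 on either side of the rule's edge, and Klf4 and Jarid2 from a list of 15 names; 15 more were added after removal of both trends. Some genes that these rules name are not reported here. Tools were Python 3.11.15, pandas 2.3.3, scipy 1.17.1 and limma 3.58.1 (normexp alternative). As 1 array covers each position, the number of arrays limits precision, and replicate error is unknown.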

Additional observations from a re-analysis of the deposited data

How the results depend on the processing

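CpG-rich promoters were called more often and stood higher than other genes in each alternative below, except that on the second array with the GC and CpG trend removed 5.71% of them and 6.61% of the other genes were called; the cause of each shift was not tested. As measured, 82.9% of the CpG-rich promoters and 14.3% of the other genes were called, their median highest set means were 1.99 and 0.95, the median difference of CpG-rich minus other probes was 1.57, and 5.71% of the highest sets of the CpG-rich promoters held a Tcf word. With all spots, 61.4% of the CpG-rich promoters were called, 81.4% on the first array and 41.4% on the second, with medians of 1.87 and 1.1 over both arrays. With the GC trend removed, 36.4% were called, the medians were 1.20 and 0.83 and the difference 0.50, and the highest set mean of Scube1 turned to -0.013. With all spots and the GC trend removed, 27.9% and 12.5% were called, the medians were 1.19 and 0.88, the difference 0.57, and 11.4% held a word. With the GC and CpG trend removed, which was added after seeing the data, 20% were called, with medians of 1.02 and 0.79 and a difference of 0.11. Normexp gave 90% and 20.7% called, with medians of 1.76 and 0.80. With the intensity trend removed, 17.4% of the other genes were called, the medians were 1.64 and 0.83 and the difference 1.11. A set probability of 0.0001 gave 73.6% and 10.5% called; 0.01 gave 16.1% of the other genes, and neighbours within 500 bp gave 13.7%. Probes of 65% G+C and 5 CpG left 13 promoters, with a median of 2.43, a difference of 2.06 and 0% with a word. With at least 5 measured probes the other genes' median was 0.96. Leaving out either array, the shares called ranged over 80.0 to 85.7% and 11.1 to 17.1%, the medians over 1.85 to 2.13 and 0.83 to 1.05, and the difference over 1.32 to 1.67; 4.29 to 7.14% held a word. A minimum of 10 CpG-rich probes left 1 gene and was not run. Of 45 named genes, 16 lost their call and 2 gained one with the GC and CpG trend removed. No paired analysis was possible because the arrays carry different probes and there is 1 group. In 30.7% and 51.7% of the spots on the arrays the IP signal was a surrogate, which limits what dim probes can show.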
